A study of Homo sapiens with 4 samples.

Results

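The genes described here are 10 feedback inhibitors of MAP kinase signalling: the MAP kinase phosphatase genes DUSP1, DUSP4, DUSP5, DUSP6, DUSP10 and DUSP16, the Sprouty genes SPRY1, SPRY2 and SPRY4, and the Sprouty-related gene SPRED2. They were taken by symbol from a table of 20515 genes, and all 10 were found in it and tested. RNA was sequenced from T47D, a human luminal breast cancer cell line. There were 2 control libraries and 2 libraries from cells treated with baicalein, a flavone from the roots of skullcap plants. The labels used here give no dose, duration or vehicle, and they do not say whether replicates were cultured separately. The p-values thus reflect the spread among 4 libraries, and that spread could be technical. The question was which of these genes differ in transcript level after baicalein, in a single cell line.

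MAP kinases (ERK, JNK and p38) are switched on by phosphorylation of a threonine and a tyrosine in one loop of the kinase, and the dual-specificity MAP kinase phosphatases remove both phosphates. Many of these phosphatases, and the Sprouty proteins, are transcribed in response to the pathway they inhibit and so act as negative feedback. Sprouty proteins dampen RAS and ERK signalling below receptor tyrosine kinases, and SPRED proteins bring the RAS inactivator neurofibromin to the membrane.

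Levels are given as CPM, the count scaled to library size with TMM factors. Transcripts of 6 of the 10 genes were higher after baicalein, 2 were lower and 2 did not pass (edgeR's quasi-likelihood test, adjusted p under 0.05). The test called 75.0% of all 18369 tested genes, 37.4% higher and 37.6% lower, so a call by itself sets these genes little apart from the rest. The phosphatase genes DUSP1, DUSP5, DUSP6, DUSP10 and DUSP16 rose and DUSP4 fell. Of SPRY1, SPRY2 and SPRY4, only SPRY4 was called, and it fell. Against a change of 1.5-fold, 5 genes passed upwards and 1 downwards, where 36.3% of all genes passed, 16.8% upwards and 19.5% downwards. Against 2-fold only DUSP10 passed, upwards, where 18.8% of all genes passed, 8.10% upwards and 10.7% downwards. The median log2 fold change of the 10 genes was 0.49, against 0.00171 over all tested genes, and the median size without sign was 0.86 against 0.57. Control and baicalein libraries did not overlap for 9 of the 10 genes, and for 86.9% of all tested genes. In such bulk RNA, fewer cells expressing a gene and less of its RNA per cell cannot be told apart.

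**Figure D1:**
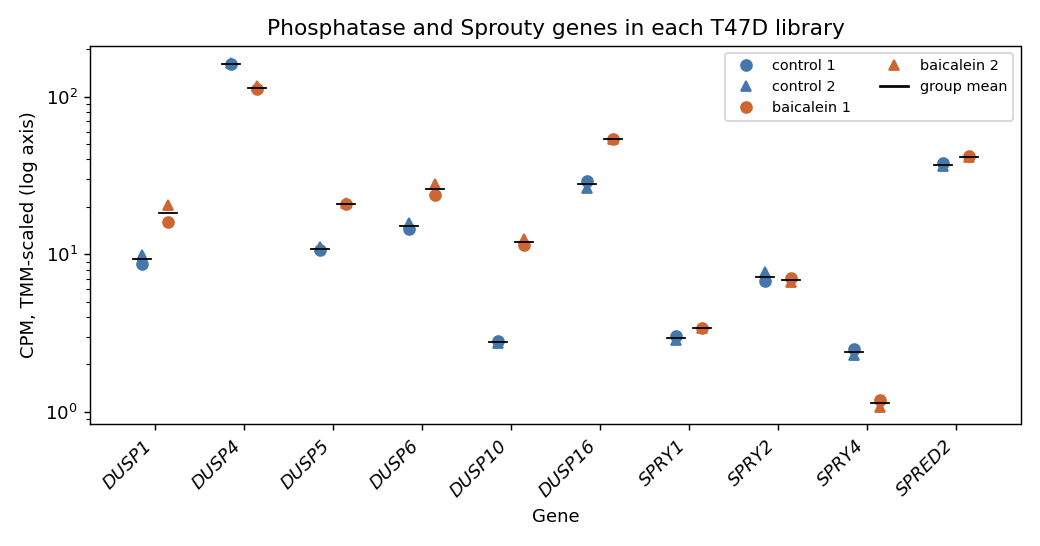
Level of each of the 10 genes in each library, in CPM on a log axis, with circles for replicate 1, triangles for replicate 2 and bars for group means. DUSP4 is the highest in every library and falls, the other 5 phosphatase genes lie higher in both baicalein libraries than in both controls, and SPRY2 overlaps between the groups.

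Because 5 phosphatase genes rose together, the bases upstream of their starts are shown where the RefSeq promoter table (GRCh38.p14) holds them and they lie outside the annotated exons of the gene. Windows of 8 of the 10 genes were used. DUSP5 had no entry, and no window of DUSP4 was used, whether or not the table holds one. Sequences of 3 genes are given, 5′ to 3′ on the strand of the gene: DUSP10 for the largest rise, DUSP1 for the motif matches and DUSP16 for the rising gene with none.

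DUSP10 (chr1:221742177-221742339, minus strand): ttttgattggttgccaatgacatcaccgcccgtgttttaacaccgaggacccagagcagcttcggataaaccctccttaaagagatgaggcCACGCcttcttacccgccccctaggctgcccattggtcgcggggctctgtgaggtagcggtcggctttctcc
DUSP1 (chr5:172771196-172771445, minus strand): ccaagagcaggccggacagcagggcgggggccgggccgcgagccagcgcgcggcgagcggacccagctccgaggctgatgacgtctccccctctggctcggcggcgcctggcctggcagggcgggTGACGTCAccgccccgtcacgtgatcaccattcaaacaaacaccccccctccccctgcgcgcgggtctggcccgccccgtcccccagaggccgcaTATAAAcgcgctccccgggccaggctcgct
DUSP16 (chr12:12562864-12563113, minus strand): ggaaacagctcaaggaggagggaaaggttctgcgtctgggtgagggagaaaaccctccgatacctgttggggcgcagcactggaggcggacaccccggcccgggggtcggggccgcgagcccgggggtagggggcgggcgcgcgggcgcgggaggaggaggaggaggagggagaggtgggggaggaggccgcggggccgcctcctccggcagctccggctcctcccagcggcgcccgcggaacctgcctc

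Capitals mark matches to the motifs searched on both strands: the cAMP response element TGACGTCA, the AP-1 site TGANTCA, the core GCGTG of sites bound by the aryl hydrocarbon receptor, TGATGCAA of amino acid response elements, the ETS site CCGGAAGT and the TATA box TATAAA. No 2 of these motifs hold each other. DUSP1 holds TGACGTCA from 125 bases before its start and TATAAA from 30 bases before it, which 1.65% and 10.7% of the 35116 windows of 250 bases in the table hold. DUSP10 holds the reverse complement of GCGTG, as do 32.2% of the windows on either strand. The table gives DUSP10 a second start, whose window (chr1:221736901-221737150, minus strand) is not shown and held none of the 6 motifs. GCGTG on either strand was also found in 1 window each of DUSP6, SPRY1 and SPRED2, and TATAAA in a second window of SPRED2. None of the 6 motifs was found in the windows of DUSP16, SPRY2 or SPRY4. A match describes letters and is no evidence of binding. The RefSeq start of DUSP16 lies upstream of that in the GENCODE 29 annotation. All 250 bases of the DUSP6 window and 170 of the 250 bases of the SPRY4 window lie in annotated exons of the gene. The windows thus depend on the annotation.

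DUSP10 and DUSP16 code for phosphatases that prefer JNK and p38 over ERK, and both were higher after baicalein. DUSP10 (ENSG00000143507, chromosome 1, positions 221701424 to 221742176 of GRCh38) was at 2.84 and 2.74 CPM in control 1 and 2 and at 11.4 and 12.5 CPM in baicalein 1 and 2. The treated libraries thus lay far above both controls, and the rise was 4.27-fold (log2 fold change 2.09, SE 0.11, edgeR adjusted p = 3.35e-14). Of all tested genes 96.3% had a lower log2 fold change. DUSP16 (ENSG00000111266, chromosome 12, positions 12474210 to 12562383) was at 29.3 and 26.4 CPM in the controls and at 54.2 CPM in both baicalein libraries. Its 1.94-fold rise (log2 fold change 0.96, SE 0.06, edgeR adjusted p = 5.49e-13) was far larger than the gap between the controls.

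DUSP1, DUSP4 and DUSP5 code for nuclear phosphatases. DUSP1 (ENSG00000120129, chromosome 5, positions 172768090 to 172771195), a classical immediate early gene whose product acts on p38, JNK and ERK, was at 8.74 and 9.93 CPM in the controls and at 16.0 and 20.5 CPM after baicalein. The groups did not overlap, and the rise was 1.94-fold (log2 fold change 0.95, SE 0.11, edgeR adjusted p = 3.36e-06). The baicalein libraries differed from each other: their SD was 17.6% of their mean, where counting alone would give 3.50%, and the median over 1902 genes of like level (within 0.5 log2 CPM) was 3.38%. DUSP5 (ENSG00000138166, chromosome 10, positions 110497838 to 110511544), whose product is selective for ERK, was at 10.7 and 11.1 CPM in the controls and at 20.7 and 21.0 CPM after baicalein. Its 1.92-fold rise (log2 fold change 0.94, SE 0.07, edgeR adjusted p = 1.03e-10) was close to that of DUSP1 in size, and the SD of its baicalein libraries was 1.07% of their mean. DUSP5P1, a processed pseudogene of DUSP5, had 8 to 33 counts per library, or 1.58% to 2.91% of the DUSP5 count.

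DUSP4, whose product acts on ERK and JNK, moved the other way. The gene (ENSG00000120875, on chromosome 8) was at 161 and 163 CPM in the controls and at 112 and 116 CPM after baicalein. It fell 1.42-fold (log2 fold change -0.50, SE 0.04, edgeR adjusted p = 4.13e-10), with no overlap between groups, and did not pass the test against 1.5-fold. The 95% interval of the log2 fold change ran from -0.59 to -0.41.

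DUSP6 codes for the cytoplasmic phosphatase that is selective for ERK and is widely read as a marker of ERK activity. The gene (ENSG00000139318, chromosome 12, positions 89347232 to 89353271) was at 14.4 and 15.8 CPM in the controls and at 23.8 and 28.1 CPM after baicalein. It rose 1.71-fold (log2 fold change 0.77, SE 0.08, edgeR adjusted p = 7.93e-09). Like DUSP1, it was higher in baicalein 2 than in baicalein 1, with an SD of 11.6% of the mean against 2.94% from counting alone and a median of 2.72% over 2260 genes of like level. Its pass against 1.5-fold (edgeR adjusted p = 0.0101) was lost without control 1 (0.0526), without baicalein 2 (0.197) and with scaling by library totals (0.129), while the plain call held in each. Exons of the antisense gene AC024909.2 overlap 1875 bases of DUSP6 exons. That gene had 36 to 79 counts per library, or 3.76% to 7.55% of the DUSP6 count, and the strand setting of the counting is unknown here, so reads of the pair may not be told apart.

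**Figure D2:**
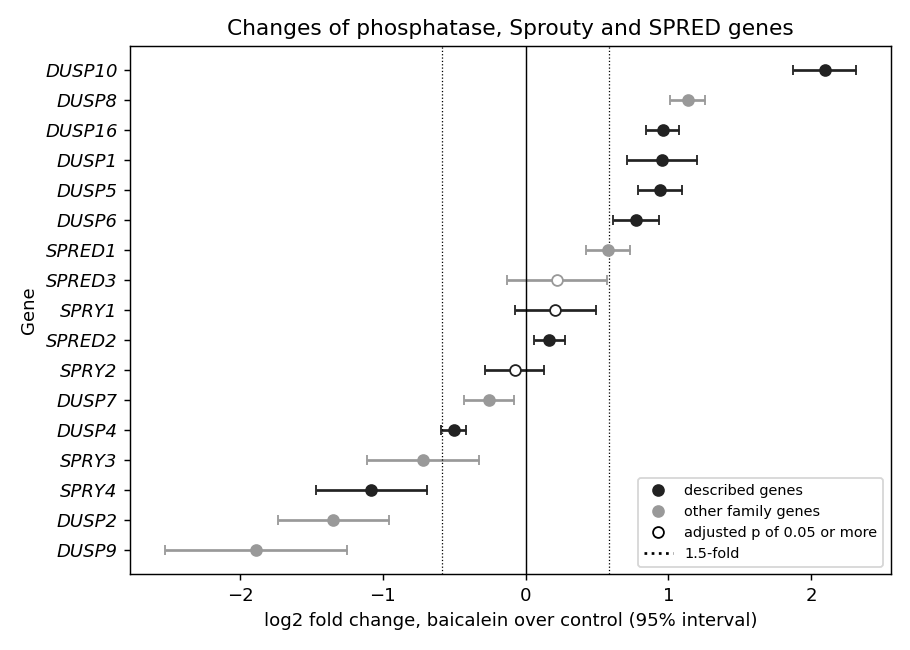
Log2 fold change, baicalein over control, with its 95% interval for the 10 described genes (black) and 7 further genes of the same families (grey). Open circles have an adjusted p of 0.05 or more and dotted lines mark 1.5-fold. DUSP10 stands highest at 2.09, a group of 5 genes from DUSP6 to DUSP8 lies between 0.77 and 1.14, and SPRY4, DUSP2 and DUSP9 lie below -1.

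Of the Sprouty and SPRED genes among the 10 described, SPRY4 and SPRED2 passed the test, in opposite directions. SPRY4 (ENSG00000187678, chromosome 5, positions 142310427 to 142326455), an inhibitor of RAS activation below receptor tyrosine kinases, was at 2.52 and 2.296 CPM in the controls and at 1.19 and 1.07 CPM after baicalein. The groups did not overlap, and the fall was 2.11-fold (log2 fold change -1.08, SE 0.19, edgeR adjusted p = 1.93e-05). With 119 and 108 control counts against 65 and 40 after treatment, this was the least precise value of the 10 genes.

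SPRY2 (ENSG00000136158, chromosome 13, positions 80335976 to 80340951), which controls receptor signalling through binding of the ubiquitin ligase CBL, was at 6.77 and 7.68 CPM in the controls and at 7.04 and 6.63 CPM after baicalein. The groups overlapped, and the log2 fold change of -0.08 (95% interval -0.28 to 0.13, edgeR adjusted p = 0.502) did not pass. For SPRY1 (ENSG00000164056, chromosome 4, positions 123396795 to 123403760) the levels were 3.03 and 2.85 CPM in the controls and 3.38 and 3.41 CPM after baicalein. Both treated libraries lay above both controls, but the log2 fold change of 0.21 (95% interval -0.07 to 0.49, edgeR adjusted p = 0.169) did not pass. These intervals leave out a 1.5-fold change of either gene.

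SPRED2 (ENSG00000198369, chromosome 2, positions 65310851 to 65432637) was at 37.9 and 36.2 CPM in the controls and at 41.8 and 41.3 CPM after baicalein. Its 1.12-fold rise (log2 fold change 0.17, SE 0.05, edgeR adjusted p = 0.0075) was the smallest that passed. The call was lost without baicalein 1 (adjusted p = 0.0868) and with scaling by library totals (0.304).

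**Figure D3:**
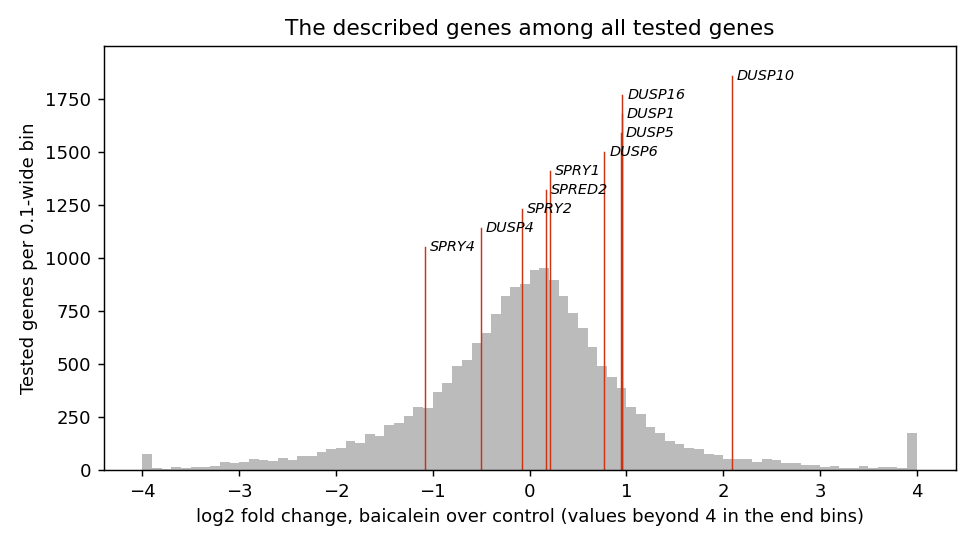
Number of tested genes per bin of log2 fold change (grey, 18369 genes, with values beyond 4 in the end bins) and the position of each of the 10 described genes (red lines, whose heights only separate the names). DUSP1, DUSP5 and DUSP16 lie together near 0.95 and DUSP10 lies at 2.09.

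Levels of different genes were compared as CPM per kilobase of annotated exon. In controls DUSP4 stood at 22.3 ± 0.270 CPM per kilobase (SD, n = 2), followed by SPRED2 at 7.19 ± 0.230 and DUSP16 at 4.87 ± 0.356. DUSP1, DUSP5, DUSP6, SPRY2, DUSP10, SPRY1 and SPRY4 followed in that order, from 4.62 ± 0.416 down to 0.367 ± 0.0239. Only DUSP16 and DUSP1 overlapped among neighbours in this order. In baicalein libraries DUSP4 was still highest at 15.8 ± 0.381 CPM per kilobase, and DUSP16, DUSP1, SPRED2 and DUSP5, from 9.46 down to 7.99, overlapped from each neighbour to the next. DUSP10 moved past SPRY2, to 4.10 ± 0.272 from 0.957 ± 0.0226 CPM per kilobase, and SPRY4 was lowest at 0.172 ± 0.0123.

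The mix of phosphatase transcripts differed between the groups. Over all 10 MAP kinase phosphatase genes, which adds DUSP2, DUSP7, DUSP8 and DUSP9, the summed level was 47.4 and 48.9 CPM per kilobase in the controls and 60.9 and 65.3 after baicalein. DUSP4 held 46.7% and 46.1% of that sum in the controls and 25.4% and 24.6% after baicalein. The share of DUSP10 went from 2.05% and 1.93% to 6.41% and 6.58%, that of DUSP16 from 10.8% and 9.45% to 15.5% and 14.5%, and that of DUSP8 from 8.13% and 8.36% to 14.2% and 13.5%. These shares do not depend on scaling between libraries, but they depend on the exon lengths used: with the longest coding transcript as length, DUSP4 held 50.7% in controls and 29.0% after baicalein. The sum over SPRY1, SPRY2, SPRY4 and SPRED2 was 10.7 and 10.6 CPM per kilobase in the controls and 11.5 and 11.2 after baicalein, and SPRED2 held 67.3% ± 1.68 of it in controls and 71.1% ± 0.488 after baicalein (SD, n = 2).

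**Figure D4:**
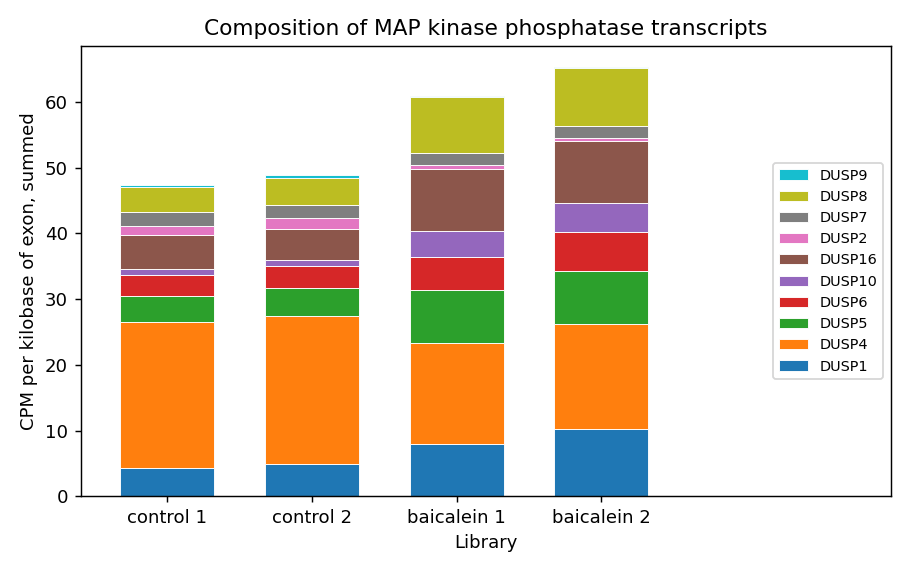
Summed level of all 10 MAP kinase phosphatase genes in each library, in CPM per kilobase of exon, stacked by gene. The DUSP4 segment shrinks from 22.1 and 22.5 in the controls to 15.5 and 16.0 after baicalein, while the whole bar grows.

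Of the 7 further genes of these families, 2 were higher, 4 lower and 1 did not pass, where 37.4% of all tested genes were higher and 37.6% lower, and their median log2 fold change was -0.25. DUSP8, a phosphatase for JNK and p38 like DUSP10 and DUSP16, rose from 18.3 ± 0.750 to 40.3 ± 0.474 CPM (SD, n = 2 here and below; log2 fold change 1.14, SE 0.06), and SPRED1 rose from 16.5 ± 1.84 to 24.6 ± 0.627 CPM. DUSP2, which codes for a nuclear phosphatase, fell from 2.86 ± 0.429 to 1.11 ± 0.132 CPM. DUSP7 and DUSP9 code for cytoplasmic ERK phosphatases like DUSP6, but had log2 fold changes of -0.25 and -1.89, and both were called lower. DUSP9 had only 47 and 64 counts in the controls and 16 and 13 after baicalein, and its SE was 0.31. The call of DUSP7 (edgeR adjusted p = 0.00939) was lost in DESeq2 (0.0811) and without baicalein 1 (0.103). SPRY3 was lower (log2 fold change -0.72) and SPRED3 did not pass (0.22, edgeR adjusted p = 0.243). DUSP9, SPRY3 and SPRED3 are named outside the naming rule, after their values were seen.

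The phosphatases act on the MAP kinases. In the cascades of these kinases calls went in both directions, as they did over all tested genes, of which 75.0% were called, 37.4% higher and 37.6% lower. Of 21 tested genes of the RAS, RAF, MEK and ERK cascade 11 were higher, 6 lower and 4 did not pass, with a median log2 fold change of 0.19. KSR1, which codes for a scaffold of RAF, MEK and ERK, rose from 5.197 ± 0.107 to 16.5 ± 0.493 CPM, and the RAS exchange factor gene SOS2 from 58.8 ± 2.702 to 109 ± 1.29 CPM. RPS6KA1, which codes for a kinase activated by ERK, fell from 39.1 ± 1.36 to 23.3 ± 2.10 CPM, and PEBP1, which codes for an inhibitor of RAF, from 270.4 ± 6.78 to 162 ± 1.29 CPM.

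Of 17 genes of the p38 and JNK cascades 6 were higher, 10 lower and 1 did not pass, against the same 37.4% higher and 37.6% lower over all genes, and the median was -0.23. GADD45A, a stress gene whose product binds the upstream kinase MEKK4, rose from 5.91 ± 0.634 to 94.6 ± 2.95 CPM, and the JNK gene MAPK8 rose from 23.0 ± 0.719 to 39.0 ± 0.679 CPM. MAP2K6, which codes for a kinase that activates p38, went down from 9.23 ± 0.720 to 0.563 ± 0.264 CPM (log2 fold change -3.95, SE 0.17). It had 41 and 14 counts in the baicalein libraries, and without baicalein 1 the log2 fold change was -4.60. MAP3K5, which codes for a stress-activated kinase above JNK and p38, fell from 3.99 ± 0.287 to 2.37 ± 0.405 CPM.

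Other transcripts known to respond to ERK activity in many cells were called in both directions. Of 14 tested 9 were higher, 4 lower and 1 did not pass, where 37.4% of all tested genes were higher and 37.6% lower, and the median was 0.52. The 9 include BCL2L11 (log2 fold change 0.81), a gene for a death-promoting protein that ERK signalling holds down rather than raises. It is named outside the naming rule, after its value was seen. The ETS factor gene ETV5, with 35 and 24 counts in the controls, rose from 0.625 ± 0.163 to 7.39 ± 0.861 CPM. The ETS factor genes ETV1 and ETV4 of the same list were called lower, with log2 fold changes of -1.13 and -0.51. Both are named outside the naming rule, after their values were seen. The immediate early gene IER3 rose from 71.5 ± 2.08 to 226 ± 10.1 CPM. The immediate early gene EGR1 fell from 4.57 ± 0.450 to 0.502 ± 0.0651 CPM and the cyclin gene CCND1 from 363 ± 6.08 to 120.05 ± 0.0176 CPM.

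Among 11 tested genes of FGF receptors and partners of Sprouty proteins 5 were higher, 3 lower and 3 did not pass, a called share close to the 75.0% of all genes, and the median was 0.12. The receptor genes FGFR3 and FGFR4 fell from 91.2 ± 5.13 to 15.5 ± 0.432 CPM and from 21.0 ± 1.16 to 5.78 ± 0.202 CPM. CBLB, which codes for a ubiquitin ligase of the CBL family, rose from 7.95 ± 0.671 to 28.7 ± 0.0152 CPM, and the kinase gene DYRK1A from 56.4 ± 2.21 to 111 ± 2.55 CPM.

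The genes with the level and change most like those of DUSP10 and SPRY4 were found as the smallest Euclidean distance in log2 CPM over the 4 libraries. For DUSP10 these were FAM225B, NTN4 and ZSCAN12 (distances 0.20, 0.20 and 0.21), which went from 2.86, 2.64 and 2.76 CPM to 11.8, 11.0 and 11.1 CPM. For SPRY4 they were LURAP1L-AS1, LINC01116 and PTPRG-AS1 (0.13, 0.14 and 0.19). With 4 libraries in 2 groups, such likeness rests on level and fold change alone.

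The control libraries held 45341857 and 45618604 counts and the baicalein libraries 56732569 and 38597207, so 1 CPM stood for 37.3 to 54.7 counts. Of 9 luminal epithelial markers all were detected, summing to 12876 and 14173 CPM in the controls and 7293 and 7410 CPM after baicalein. Of the 9 markers 1 was higher, 7 were lower and 1 did not pass, where 37.4% of all tested genes were higher and 37.6% lower. KRT8, the largest part of the sum, fell from 5163 ± 503 to 2223 ± 63.9 CPM. It is named outside the naming rule, after its value was seen. CDH1 rose from 555 ± 14.0 to 1068 ± 15.2 CPM, while the hormone receptor genes PGR and ESR1 fell, with log2 fold changes of -3.05 and -2.20. Of 9 markers of other cell types 3 were in the table, summing to 121 and 131 CPM in the controls and 172 and 162 CPM after baicalein. PTPRC had no count in the controls and 5 and 6 counts after baicalein, too few to be tested. COL1A1 went from 95.2 ± 7.32 to 145 ± 7.12 CPM and ACTA2 from 30.9 ± 0.101 to 21.9 ± 0.303 CPM. The part of these shifts in the results above was not tested.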

How the data were processed

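The authors deposited whole-number counts per Ensembl gene for 4 libraries, without scaling. Per the submitters' processing notes, the tools were STAR 2.7.8a, RSEM 1.3.3, cutadapt 2.3, DESeq2 1.34 and FastQC 0.11.8 with the build GRCh38, with no roles stated. Sources used here do not give the annotation, the strand setting or whether counts were rounded from RSEM estimates. No row totalled under 10 counts. Of 20515 identifiers, 17419 had a symbol in the names table. Positions and exon lengths are from GENCODE 29 (GRCh38), which may not be the authors' release.

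The test was edgeR 4.0.16 under R 4.3.3 (robust quasi-likelihood fit, TMM scaling, filterByExpr with a minimum count of 10 and total of 15, which kept 18369 genes). Benjamini-Hochberg adjustment ran over all tested genes, with a threshold of 0.05. Tests against 1.5-fold and 2-fold used glmTreat on the same fit. The SE is the size of the log2 fold change divided by the square root of F. No set test was run. CPM values carry the TMM factors. Counting error assumes that reads are independent, which reads without molecular identifiers are not.

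The genes, lists and tests were chosen with earlier results of these data known. Named were the 10 genes, in each list up to 2 highest and 2 lowest called log2 fold changes at a mean log2 CPM of at least 1, and the 3 genes nearest to DUSP10 and to SPRY4. Alternatives were other scalings, filters, DESeq2 1.42.0, limma-voom (limma 3.58.1), a replicate block, other thresholds and leaving out each library. Another gene length was added after seeing the data. On simulated data for this comparison (18328 genes), 50 genes each were changed by 1.2, 1.5, 2 and 4 fold. Of these 46%, 80%, 96% and 98% were called in the right direction, and 9 of 17476 unchanged genes were called. No other gene was changed there, whereas the test on the real data called 75.0% of genes. The adjustment was thus stricter in the simulation, and its rates do not carry over to these data. The mean chi-square per gene between replicates was 9.61 for controls and 2.43 for baicalein, where sampling alone gives a mean of 1. The medians were 1.39 and 0.703. Sampling alone gives a median below its mean, so the medians are not to be read against 1.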

Additional observations from a re-analysis of the deposited data

How the results depend on the processing

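The counts of the 10 genes called higher (6) and lower (2) stayed within 5 to 6 and at 2 under every scaling, filter, tool, threshold and left-out library tried. With the replicate number as a block they were 6 and 2, and over all genes 6894 and 6909. Taken over all genes, same-numbered libraries did not deviate together (r = 0.0136 over 18369 genes), but this value cannot speak for single genes. DUSP1, DUSP4, DUSP5 and DUSP6 were higher in replicate 2 than in replicate 1 of both groups. SPRY4 and SPRED2 were lower in both, and the rest differed in direction between groups. Whether replicates of the same number share a source was not tested. Without 1 library the genes past 1.5-fold upwards ranged from 4 to 5 and downwards stayed at 1, while against 2-fold (edgeR's glmTreat) they were 1 and 0, both adjusted and at an unadjusted p under 0.05. Of 120 values of the 10 genes under alternatives, 117 kept direction and call, 2 lost the call (both SPRED2, given above) and 1 reversed: SPRY2, not called, ranged from -0.17 to 0.023 when 1 library was left out, the latter without control 2. Library totals moved the median log2 fold change of all genes to -0.10, and relative to it the 10 genes lay between -1.08 and 2.09, with SPRED2 at 0.16. Levels per kilobase moved by more than 1 SD with library totals in DUSP4 (23.1 in controls, 15.2 after baicalein), DUSP5 (4.31 and 7.71), SPRED2 (7.45 and 7.77), DUSP10 (0.992 in controls), DUSP16 (9.13 after baicalein) and SPRY1 (0.827 after baicalein). Precision is limited by 2 libraries a group and, for SPRY4, SPRY1 and DUSP10, by 108 to 143 counts in each control library.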
